A study of Homo sapiens with 3 samples.

Results

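Very wide accessible promoters are the open chromatin regions of at least 2000 bp that lie at the outer end of a protein-coding gene. They were found in human neurons by ATAC-seq, which uses the transposase Tn5 to cut and tag DNA that is not wrapped tightly. The members were chosen by their measured width and position: a region counted when it spanned 2000 bp or more and had a summit, a local maximum of tags, within 1 kb of the lowest or highest coordinate of a coding gene in RefSeq's GRCh38 annotation. Of 65234 distinct regions in the list, 1177 reached that width, 13184 lay at a coding gene end, and 850 did both. The 850 regions made up 6.45% of the regions at coding gene ends. They lay at the ends of 968 coding genes, which is 4.83% of the 20033 coding genes annotated and 7.03% of the 13777 that had any region at an end. The other 12334 regions at coding gene ends are called narrower below.

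The cells were neurons of the KOLF2.1J-hNGN2 line, an induced pluripotent stem cell line that carries the transcription factor NGN2 as a driver of neuronal fate, after 14 days of differentiation. All 3 biological replicates came from this 1 line and formed 1 group, with no untreated or undifferentiated group beside it. The promoter that drives the introduced NGN2 is not given in the sources used here. The deposited list gives 1 set of values for all 3 samples, so no value has a replicate error and no test over samples was possible. Regions share libraries and neighbours and are not replicates, so differences between the very wide and the narrower regions are given as medians, shares and the number of autosomes with the same direction.

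A promoter is usually accessible over the short stretch next to the start of transcription from which nucleosomes are displaced, and the flanking nucleosomes limit how far the open stretch reaches. Most human promoters lie in CpG islands, which are rich in C and G and in the dinucleotide CG. Genes for developmental regulators and genes with specialised roles in neurons are known for long CpG islands that reach well into the gene, whereas promoters of housekeeping genes often carry sites for ETS factors, NRF1 and NF-Y close to their start.

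The 250 bases that precede the start of 4 of the widest members show how different the sequences at such regions were. These are the 4 widest members that have a matched RefSeq promoter whose start is exactly the outer end of the gene. SAMD4A, which is wider than SPRY1, has a promoter whose start is not its outer end and is not shown. They are given 5′ to 3′ on the strand of the gene from RefSeq (GRCh38.p14), with each CG in capitals. SLIT2 (plus strand, chr4:20251655-20251904) encodes a secreted cue that repels axons, SPRY1 (plus strand, chr4:123396545-123396794) an inhibitor of growth factor signalling, SLITRK4 (minus strand, chrX:143636102-143636351) an adhesion protein of synapses, and PLXNC1 (plus strand, chr12:94148327-94148576) a receptor for semaphorins.
SLIT2: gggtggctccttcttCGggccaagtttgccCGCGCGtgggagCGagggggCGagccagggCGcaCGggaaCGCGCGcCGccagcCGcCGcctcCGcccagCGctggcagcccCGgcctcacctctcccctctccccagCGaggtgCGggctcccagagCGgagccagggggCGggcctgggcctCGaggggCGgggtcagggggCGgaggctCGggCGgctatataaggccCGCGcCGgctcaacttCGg
SPRY1: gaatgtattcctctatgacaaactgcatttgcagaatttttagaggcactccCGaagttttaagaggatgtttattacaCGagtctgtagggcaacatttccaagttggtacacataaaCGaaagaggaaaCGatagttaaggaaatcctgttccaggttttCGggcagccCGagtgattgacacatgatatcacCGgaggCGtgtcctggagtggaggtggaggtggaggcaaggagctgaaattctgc
SLITRK4: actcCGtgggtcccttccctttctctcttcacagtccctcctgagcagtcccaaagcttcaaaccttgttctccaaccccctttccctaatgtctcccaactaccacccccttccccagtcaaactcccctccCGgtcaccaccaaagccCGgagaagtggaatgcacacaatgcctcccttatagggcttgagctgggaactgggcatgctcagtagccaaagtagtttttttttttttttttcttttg
PLXNC1: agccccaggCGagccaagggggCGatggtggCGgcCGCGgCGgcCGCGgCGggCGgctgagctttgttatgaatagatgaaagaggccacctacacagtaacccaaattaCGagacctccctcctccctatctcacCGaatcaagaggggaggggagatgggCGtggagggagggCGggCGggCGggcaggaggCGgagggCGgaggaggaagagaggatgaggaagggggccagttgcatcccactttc
The SLIT2 stretch held 30 CG dinucleotides and 77.2% G or C. The SPRY1 stretch held 8 and 45.6%, and the SLITRK4 stretch only 3 and 51.2%. PLXNC1 lay between them with 18 and 65.2%. A CG-dense sequence just before the start was therefore not shared by all 4 of these regions.

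For comparison, the same stretch is given for the 3 genes with the strongest narrower regions, by the deposited −log10 p, among those 1200 to 1300 bp wide, a range around the narrower median of 1256 bp. RMND1 (minus strand, chr6:151452127-151452376) acts in mitochondrial translation, RSU1 (minus strand, chr10:16817425-16817674) in cell adhesion, and BCL10 (minus strand, chr1:85276633-85276882) in NF-kappaB signalling.
RMND1: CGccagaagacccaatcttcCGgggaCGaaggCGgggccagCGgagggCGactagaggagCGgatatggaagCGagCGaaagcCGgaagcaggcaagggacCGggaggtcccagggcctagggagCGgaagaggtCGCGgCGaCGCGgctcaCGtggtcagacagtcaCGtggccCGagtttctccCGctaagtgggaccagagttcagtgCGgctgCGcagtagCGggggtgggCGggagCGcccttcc
RSU1: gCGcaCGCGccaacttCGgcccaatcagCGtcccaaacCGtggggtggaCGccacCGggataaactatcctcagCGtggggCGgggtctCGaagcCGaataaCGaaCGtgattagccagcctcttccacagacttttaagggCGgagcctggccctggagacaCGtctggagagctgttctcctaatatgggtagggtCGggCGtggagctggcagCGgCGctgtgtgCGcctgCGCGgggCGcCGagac
BCL10: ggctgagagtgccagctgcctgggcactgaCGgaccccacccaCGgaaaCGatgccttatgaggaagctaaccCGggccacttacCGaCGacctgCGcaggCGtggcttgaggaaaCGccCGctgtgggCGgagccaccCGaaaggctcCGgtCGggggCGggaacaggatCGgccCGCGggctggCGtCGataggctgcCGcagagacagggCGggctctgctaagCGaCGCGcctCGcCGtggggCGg
These held 26, 25 and 28 CG dinucleotides, and 68.0%, 64.0% and 70.0% G or C. The RMND1 stretch held CCGGAAG, the core of an ETS factor site, CCAAT, the NF-Y box, and TGCGCA, part of the NRF1 site. None of these 3 motifs was found in the 4 very wide stretches above, which are examples only.

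The widest member, at SLIT2 (chr4:20251425-20255310), spanned 3886 bp and held 12 summits. Its strongest summit stood 59 bp before the gene start with 1030 tags (exact Poisson 95% interval 968 to 1095, counting error only) over a background of 168.5 tags, a 6.08-fold enrichment. The background is the tag number that the caller took as the local level. The 10 summits inside the gene, from 570 to 3131 bp past the start, each held between 229 and 399 tags. Most of the SLIT2 region was thus a long run of low summits inside the gene behind 1 high summit at the start.

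SPRY1 (chr4:123396555-123399844, 3290 bp) had the same layout with a less uneven profile. Its strongest summit held 853 tags 26 bp before the start, a further one held 711 tags 693 bp inside the gene, and the other 9 held 298 to 441. At SAMD4A (chr14:54565062-54568433, 3372 bp), which encodes an RNA-binding repressor of translation, the strongest of 11 summits stood inside the gene, 754 bp past the start, with 696 tags, against 319 at the start. SLITRK4 (chrX:143633299-143636498, 3200 bp) and CHRM2 (chr7:136868434-136871547, 3114 bp), a muscarinic acetylcholine receptor gene, had weak summits throughout. Their strongest held 247 tags 2087 bp and 266 tags 2425 bp past the start, close to the 224 and 246 tags of their best summits near the start.

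Of the 10 widest regions, only the one at RIMS2 lay mostly outside its gene. Those at CAMK2N1, FZD7 and MDK lay mostly inside but reached 1049, 1019 and 1185 bp outside. At RIMS2, whose protein organises the release site for synaptic vesicles, the 3407 bp reached 2005 bp outside the gene and the strongest of 12 summits, with 711 tags, stood 1055 bp inside. At CAMK2N1 (chr1:20483758-20487259, 3502 bp), an inhibitor of the kinase CaMKII, 11 summits of 161 to 397 tags were spread over both sides. The FZD7 region (chr2:202032836-202035877, 3042 bp), at a Wnt receptor gene, was the strongest of the 10 widest, with 1222 tags 218 bp outside the gene, and the region shared by DGKZ and MDK (3039 bp) had its best summit, with 437 tags, 11 bp outside MDK. PLXNC1 was the exception in number of summits, with 5 in 3138 bp and 221 to 500 tags in each.

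**Figure D1:**
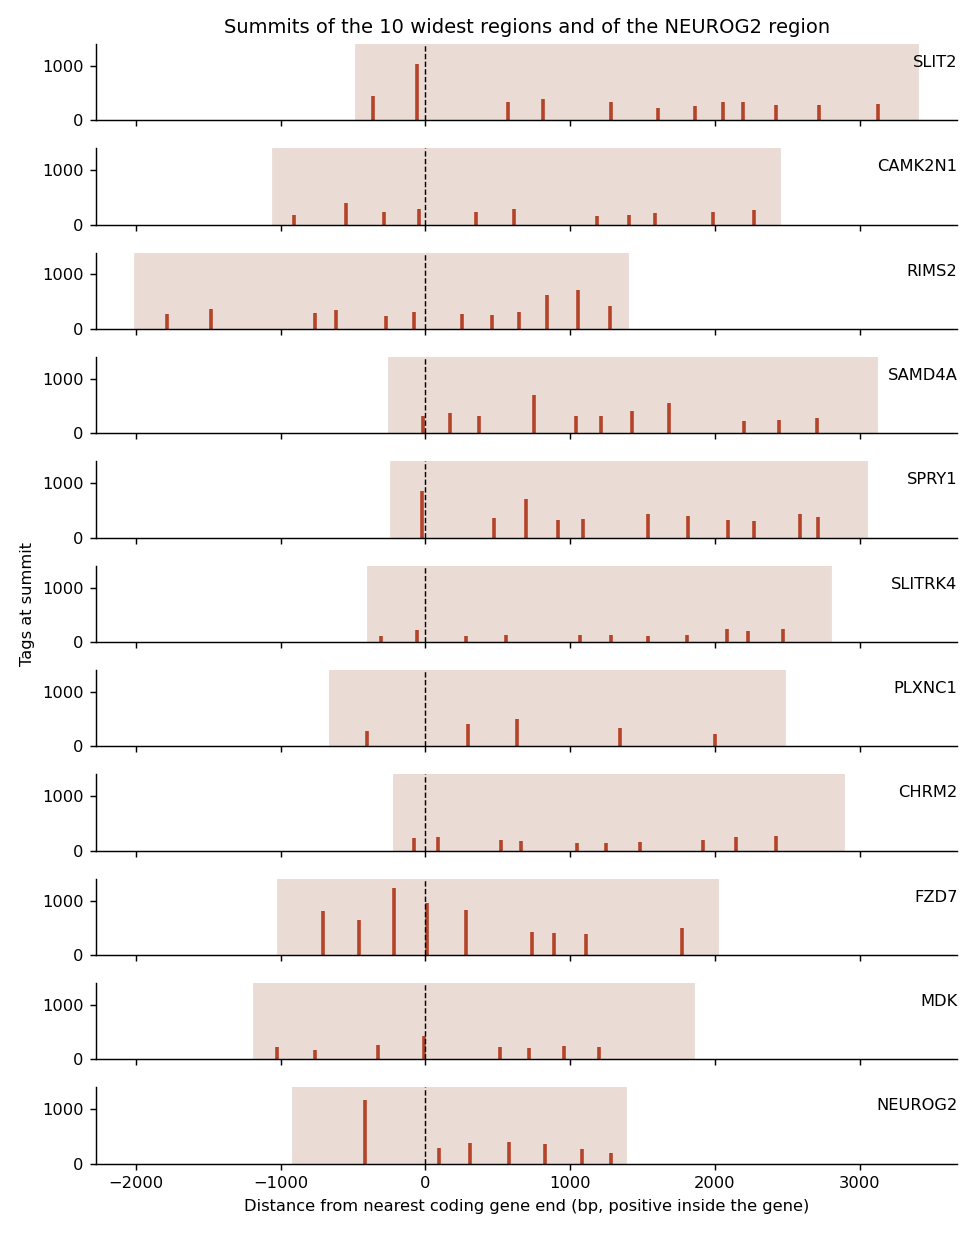
Tags at each summit (vertical lines) against distance from the nearest coding gene end in bp, positive inside the gene, for the 10 widest regions and the NEUROG2 region; shading marks the region's extent and the dashed line the gene end. SLIT2 and SPRY1 have their highest summit beside the start and lower ones along the gene, while RIMS2 has its highest 1055 bp inside and CHRM2 has summits of similar height throughout.

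Width itself chose the members, so the following values describe the choice and were not tested. The median member was 2190.5 bp wide (quartiles 2085 and 2370.5 bp), and 722 of the 850 were under 2500 bp, 114 from there to 3000 bp, and 14 wider still. Widths thinned out steadily rather than forming a separate group. The narrowest members were at ITGAV, an integrin gene (2000 bp, 1142 tags), at CCDC106 and the splicing factor gene U2AF2 (2001 bp, 2180 tags), and at ID4, an inhibitor of bHLH factors (2001 bp, 1625 tags). Just under the limit were the regions at RFX7 and TEX9 (1999 bp, 1315 tags), at the lysosomal protease gene CTSB (1999 bp, 638 tags) and at the histone acetyltransferase gene KAT6A (1998 bp, 984 tags). In tags, the regions just above and just below 2000 bp overlapped.

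**Figure D2:**
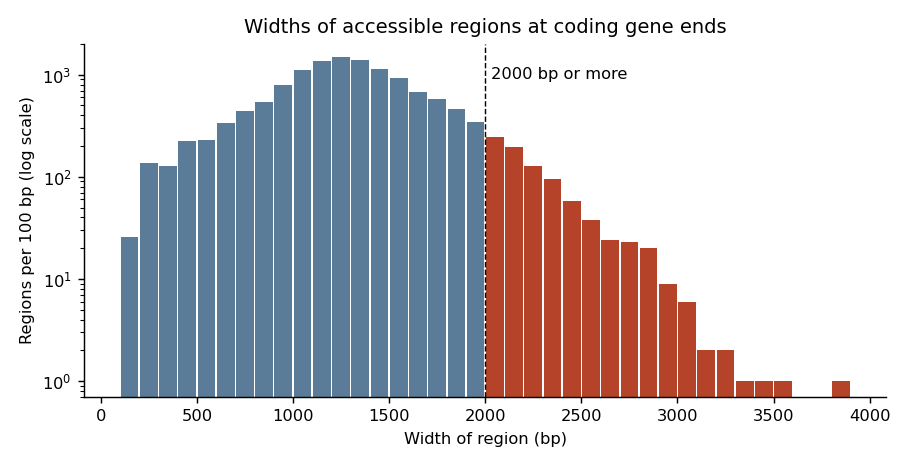
Number of regions at coding gene ends per 100 bp of width, on a log scale, with the 850 regions of 2000 bp or more in red to the right of the dashed line. The counts fall without a gap across 2000 bp.

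Very wide regions held more summits, at nearly the same median spacing. The median member held 6 summits (range 2 to 12) and the median narrower region 3, and 88.1% of members against 11.9% of narrower regions held 5 or more. With only entries of fold enrichment above the median of the list kept, the difference in the median number of summits was 0. Neighbouring summits within a region lay a median of 287 bp apart in members and 282 bp apart in narrower regions. The first and last summits were a median of 1693 bp apart in members and 588 bp in narrower regions.

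The strongest summit of a very wide region was about as high as that of a narrower one. It held a median of 796 tags (quartiles 471 and 1241) in members and 827 (quartiles 400 and 1342) in narrower regions. The direction was not the same everywhere, with members lower on 16 of 22 autosomes and higher on 6. The weakest summit held a median of 28.6% of the tags of the strongest in members and 34.7% in narrower regions. This measure depends on the number of summits, and 14.1% of narrower regions had only 1.

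Fold enrichment, in contrast, was lower: the median was 7.08 in members and 9.95 in narrower regions, lower in members on all 22 autosomes. The background beneath the strongest summit moved with it, at 109.9 tags in members and 81.3 in narrower regions, higher in members on all 22. Recovered backgrounds above the floor of 29.2 tags lay within 0.0005 tags of a whole step of 0.015 tags in 99.8% of such entries, and 14.6% of all entries were at the floor. The fold is the ratio of tags to this background, so the lower fold and the higher background are not separate results. The log2 ratios of medians, members over narrower regions, were -0.49 for fold, -0.055 for tags and 0.44 for background. The stretch over which the caller took the local level is not given, so it may hold tags of the region itself. The higher background and lower fold may therefore not be independent of the width that chose the members. Why the background was higher was not tested. The regions at coding gene ends were also divided into 5 equal classes by tag count. The fold was 4.17 in members and 4.34 in narrower regions in the lowest class, 7.45 against 10.7 in the middle and 9.56 against 13.4 in the highest.

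The members with the most tags were not the widest. GSK3B, a kinase of Wnt signalling and neuronal polarity, had 3679 tags (interval 3561 to 3800) in a region of 2063 bp, and the ETS factor gene ETV5 had 3050 in 2103 bp. The region between CEP57 and FAM76B held 2915 tags, that of MBOAT7 and TSEN34 2867, and that of C4orf46 and ETFDH 2856, each a pair of genes sharing 1 region. The highest fold enrichments, from 13.4 to 14.5, were at ZFR, EIF4EBP2, SLC30A1, GLCE and FYN, all between 2061 and 2244 bp wide. Among the 850, width and tags had a Spearman rho of -0.031 and width and fold one of -0.19, values across regions of the same libraries and given as descriptions. Over all 13184 regions at coding gene ends the values were 0.31 and 0.11, so the fold went the other way. Its median was 6.18 in regions of 500 to 1000 bp, 11.9 from there to 1500 bp, 9.42 to 2000 bp and 7.27 to 2500 bp.

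The extra width lay mainly inside the gene. From the gene end nearest the strongest summit, the median member reached 1468 bp into the gene and 734 bp out of it, against 692 and 552 bp in narrower regions. The inward reach was measured to the edge of the region, so it runs past the far end of very short genes. At H2AC18, a gene of 533 bp, it was 1790 bp. The sum of both reaches is the width that chose the members, so only their division between the sides is of note. To orient regions by the direction of transcription, the 567 members and 7646 narrower regions at the start of a single coding gene of known strand were taken. Downstream of the start the members reached a median of 1537 bp (quartiles 1228 and 1856) and the narrower regions 720.5 bp (529 and 961), and upstream 702 and 537.5 bp. The downstream arm was the longer one in 463 of the 567 members (81.7%) and in 66.9% of the narrower regions.

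Summits just before the start were about as frequent in both classes, though with fewer tags in members, and the classes parted farther out on both sides. A summit stood in the 250 bp before the start in 72.0% of members and 74.6% of narrower regions, with a median of 615 and 943 tags. From 500 to 750 bp downstream, 62.4% of members and 32.5% of narrower regions had a summit, and from 1000 to 1250 bp the shares were 52.9% and 8.36%. Upstream, from 1000 to 750 bp before the start, they were 21.3% and 5.49%. The summits 1000 to 1250 bp downstream held a median of 286 tags in members. The strongest summit lay within 250 bp of the start in 54.9% of members and 76.1% of narrower regions, more than 250 bp downstream in 30.7% and 16.0%, and more than 250 bp upstream in 14.5% and 7.87%. A region can hold summits far from the start only if it is wide, so these shares describe where the width lies and not an independent difference.

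**Figure D3:**
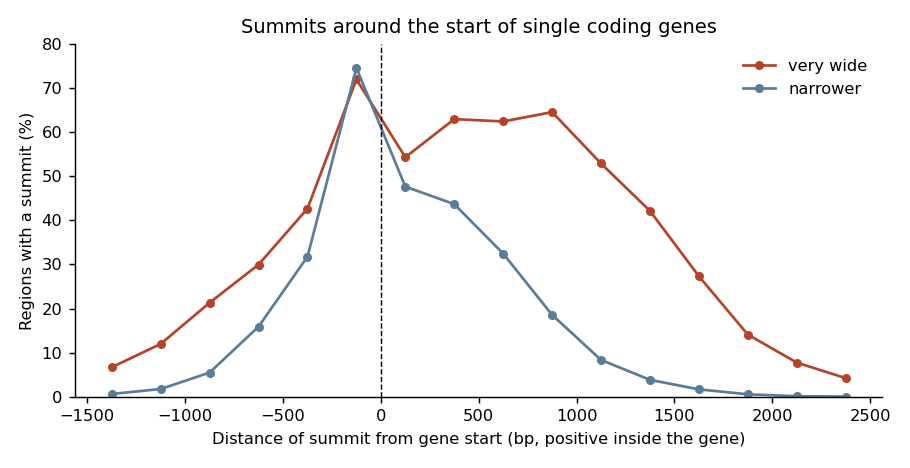
Percentage of regions with a summit in each 250 bp bin of distance from the gene start (positive inside the gene), for 567 very wide (red) and 7646 narrower (blue) regions at the start of a single coding gene. The lines are close just before the start, at 72.0% and 74.6%, and part on both sides, at 52.9% and 8.36% from 1000 to 1250 bp downstream and at 21.3% and 5.49% from 1000 to 750 bp upstream.

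Where the strand was known, nearly all members lay at gene starts. A known coding start was within 1 kb of a summit in 666 of the 850 (78.4%), only the far end of a gene in 7 (0.824%), and the strand was unknown in 177 (20.8%). Of the narrower regions, 75.6% were at a start and 6.49% only at a far end. The 7 members at far ends were at FCRLB, ARL3, BORCS6, ISOC2, KY, MCF2L2 and EPHB3, named because there are so few. The region at BORCS6 (chr17:8185987-8188082) held 1294 tags and also contained the hairpin of the microRNA MIR4521. In all, 8 members held a microRNA hairpin, among them the region of JUND with MIR3188.

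A single coding gene was the rule: 738 members had 1, 107 had 2, 4 had 3 and 1 had 4. At least 2 coding genes were found at 13.2% of members and 15.9% of narrower regions. The region with 4 was at GALNT4, a glycosyltransferase gene, POC1B, a centriole gene, and 2 readthrough genes that join POC1B to its neighbours, so that its 890 tags belong to overlapping annotations.

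Genes at very wide regions were long. Gene length comes from the annotation and was not used to choose the members. The gene nearest the strongest summit had a median length of 74673 bp (quartiles 19280 and 190659 bp) for members and 30937 bp (12270 and 77749 bp) for narrower regions, longer for members on 20 of 22 autosomes. Genes of 100 kb or more made up 44.0% of members and 19.2% of narrower regions. Read the other way, 5.32% of the regions at genes under 10 kb were very wide, 3.62% at genes from 10 to 30 kb, 4.89% from 30 to 100 kb, 11.7% from 100 to 300 kb and 19.5% above that. The share was thus lowest at genes of 10 to 30 kb and highest at the longest. In each of the 5 tag classes the member genes were longer, with medians of 67329 against 28693 bp in the lowest and 62885 against 34401 bp in the highest.

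**Figure D4:**
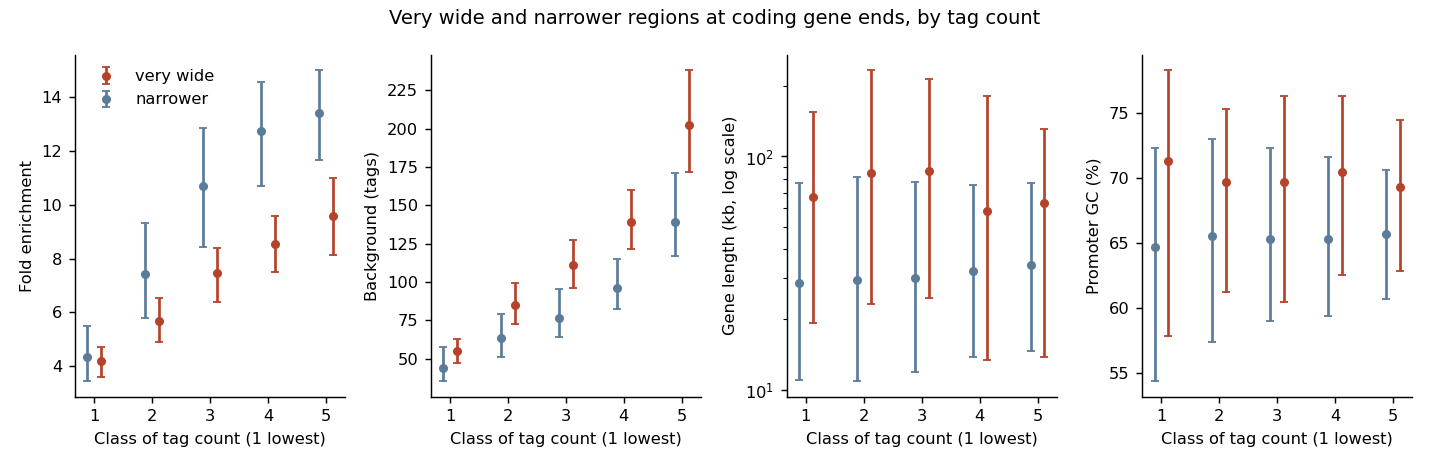
Median (points) and quartiles (bars) of fold enrichment, background tags, gene length in kb on a log scale and promoter GC in percent, for very wide (red) and narrower (blue) regions in 5 equal classes of the tag count at the strongest summit, from lowest (1) to highest (5). Fold enrichment is nearly the same in the lowest class (4.17 and 4.34) and lower in very wide regions in the others, while background, gene length and GC are higher in very wide regions in all 5.

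Some families of regulators of transcription in development were among the genes most often at very wide regions, read against 7.03% of all coding genes with any region at an end. Of the bHLH factors, which include the factors that set neuronal fate, 12 of 51 with a region had a very wide one (23.5%). Of the SOX factors it was 4 of 16 (25%) and of the forkhead factors 7 of 32 (21.9%). The homeobox factors, the largest of these lists, were nearer the share of all genes, with 10 of 95 (10.5%). The genes of these 4 lists are short, with medians of 4.59 (bHLH), 4.77 (SOX), 5.97 (forkhead) and 7.31 kb (homeobox) against 30.9 kb over all genes with a region. The shares depend on the width limit: at 1500 bp they were 37.3% of the bHLH genes and 32.5% of all genes with a region, and at 2500 bp 1.96% and 1.03%. The widest region per gene had a median of 1369 bp for bHLH and 1235 bp for homeobox genes, against 1331 bp over all genes. It was 1602 bp for SOX and 1512.5 bp for forkhead genes, so the lists differed in their general width. The lists are small, share the libraries and were not tested.

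The NEUROG2 region (chr4:112514794-112517091, 2298 bp, 7 summits) belongs to the gene of NGN2, the factor carried by the line. Its strongest summit held 1175 tags (interval 1109 to 1244) 418 bp before the start, and 6 others from 93 to 1282 bp past the start held 203 to 408. Reads from the introduced factor and from the resident gene cannot be told apart inside the coding sequence. BHLHE40, a repressor of the circadian clock, had the widest region of the bHLH list, with 2613 bp and 525 tags, ID1, an inhibitor of bHLH factors, had 2292 bp and 1286 tags, and NPAS3 had 2273 bp and 694 tags. NEUROG1, a close relative of NEUROG2 named after its values were seen, had 2088 bp and 559 tags.

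The SOX genes with a very wide region were SOX5 (2753 bp, 855 tags), SOX3 (2517 bp, 436 tags), SOX9 (2285 bp, 845 tags) and SOX17 (2184 bp, 238 tags). SOX3 and SOX9 are known from neural progenitors and glia, and SOX17 from endoderm. SOX17 had the fewest tags of the 4 and SOX5 and SOX9 the most, and a link of tags to cell type was not tested. Forkhead genes were led by FOXO1 (2977 bp, 1090 tags) and FOXP1 (2662 bp, 647 tags), followed by FOXP2 (2187 bp, 653 tags), a gene of vocal and motor circuits, and FOXD1 (2166 bp, 599 tags). Among homeobox genes CUX2, a factor of upper layer cortical neurons, had 2890 bp and 485 tags, POU4F2, of retinal ganglion and sensory neurons, 2553 bp and 453 tags, POU3F1 2394 bp and 764 tags, and SIX4 2283 bp and 665 tags.

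Genes that respond quickly to stimuli also had very wide regions, several with few summits and over 2000 tags at the strongest. Of the immediate early genes 7 of 35 had a very wide region (20%). At a limit of 1500 bp the share was 45.7% against 32.5% of all genes with a region, and at 2500 bp it was 0% against 1.03%. JUND, an AP-1 subunit, had 2372 tags in 2293 bp with 3 summits, DUSP1, a phosphatase that switches off MAP kinases, 1085 tags in 2248 bp, GADD45A, a stress response gene, 1996 tags in 2139 bp, and BTG1, an inhibitor of proliferation, 2343 tags in 2074 bp. Of the dual specificity phosphatases and Sprouty family, which include feedback inhibitors of receptor tyrosine kinase signalling, 6 of 27 had a very wide region (22.2%). Beside SPRY1 and DUSP1 these included SPRY4 (2369 bp, 2222 tags) and DUSP10 (2146 bp, 2642 tags). Among genes with a very wide region, the lists overlap in DUSP1 and, between the SP and KLF factors (2 of 22) and the immediate early genes, in KLF2. Genes without a very wide region, such as DUSP6 and KLF4, are also shared between these lists.

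Some genes of neuronal wiring and signalling also had very wide regions. Glutamate and GABA-A receptor genes had very wide regions in 6 of 38 cases (15.8%), among them GRIN2A (2445 bp, 662 tags) and GRIN2B (2312 bp, 432 tags), subunits of the NMDA receptor, and GRIA3 (2355 bp, 385 tags), of the AMPA receptor. These genes are long, with a list median of 234.6 kb, and their strongest regions held a median of 416.5 tags against 954 over all genes. Potassium channel genes, with 6 of 58 (10.3%), were nearer the background of 7.03%, and the widest was at KCNQ5 (2230 bp, 504 tags). Axon guidance genes, a list added after values had been seen, had 14 of 63 (22.2%), among them SLIT2 and PLXNC1, the ephrin receptor gene EPHA4 (2614 bp, 1295 tags) and NTN4 (2396 bp, 340 tags). One of the 14 was EPHB3, whose region lay at the far end of the gene.

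Further lists added after values had been seen gave 3 of 22 WNT and Frizzled genes (13.6%) and 5 of 37 genes of BMP, activin and TGF-beta signalling (13.5%). The Wnt ligand gene WNT7A had 2841 bp and 465 tags, and the activin receptor gene ACVR2B 3022 bp and 792 tags.

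Chromatin regulators had very wide regions in 15 of 114 cases (13.2%), led by ARID5A (2825 bp, 1122 tags), the histone demethylase gene KDM7A (2580 bp, 2321 tags), the remodeller gene CHD7 (2557 bp, 1843 tags) and ARID4B (2364 bp, 1794 tags). Histone genes had 11 of 70 (15.7%), but these 11 genes shared 6 regions. The H2AC18 and H3C14 region and the H2AC19 and H3C15 region hold near-identical copies, so that the reads there could have been split or dropped and the values are uncertain. The tubulin and actin genes had 3 of 19 (15.8%): TUBB2B (2216 bp, 1657 tags) and its near-identical neighbour TUBB2A (2054 bp, 1010 tags), for which the same holds, and ACTG1 (2149 bp, 678 tags).

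Several large families stood close to the background of 7.03%. Splicing and RNA-binding genes had 8 of 99 (8.08%), with HNRNPF (2523 bp, 1661 tags) and HNRNPU (2404 bp, 1745 tags) the widest. Genes with an SLC symbol, mostly solute carriers, had 19 of 247 (7.69%), with SLC6A15 (2744 bp, 1318 tags) and SLC38A2 (2647 bp, 1255 tags), both amino acid transporter genes, the widest. Cyclins, cyclin-dependent kinases and inhibitors of these kinases had 4 of 61 (6.56%), with CDK17 (2360 bp, 830 tags) the widest.

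Housekeeping families were seldom very wide, although the median tags of their strongest regions were above that of all genes with a region. Of the cytosolic ribosomal protein genes 1 of 81 had a very wide region (1.23%), RPL7 with 2380 bp and 2386 tags, a region shared with RDH10. Mitochondrial ribosomal protein genes had 2 of 75 (2.67%), MRPL40 (2162 bp, 1056 tags) and MRPL14 (2117 bp, 742 tags), and heat shock and ubiquitin genes 2 of 69 (2.90%), HSP90AB1 (2184 bp, 1152 tags) and HSPH1 (2003 bp, 2077 tags). In the lists added after values had been seen, the proteasome had 1 of 36 and respiratory complex I 0 of 34. The strongest regions of the cytosolic ribosomal list held a median of 1122 tags and those of the heat shock list 1329, above the 954 of all genes with a region. For the mitochondrial ribosomal, complex I and proteasome lists the medians were 1049, 1148 and 1007. Such values were not particular to these lists, as chromatin regulators, with a larger share of very wide regions, had a median of 1330. Zinc finger genes with a ZNF symbol had 10 of 436 (2.29%), the widest shared by ZNF398 and ZNF425 (2446 bp, 1368 tags).

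No very wide region was found at 45 protocadherin genes with a region, 20 olfactory receptor genes or 6 keratin genes. The protocadherin genes had wide regions all the same, with a median of 1568 bp for the widest region of each gene against 1331 bp over all genes, whereas the olfactory receptor genes had a median of 876.5 bp and 207.5 tags.

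**Figure D5:**
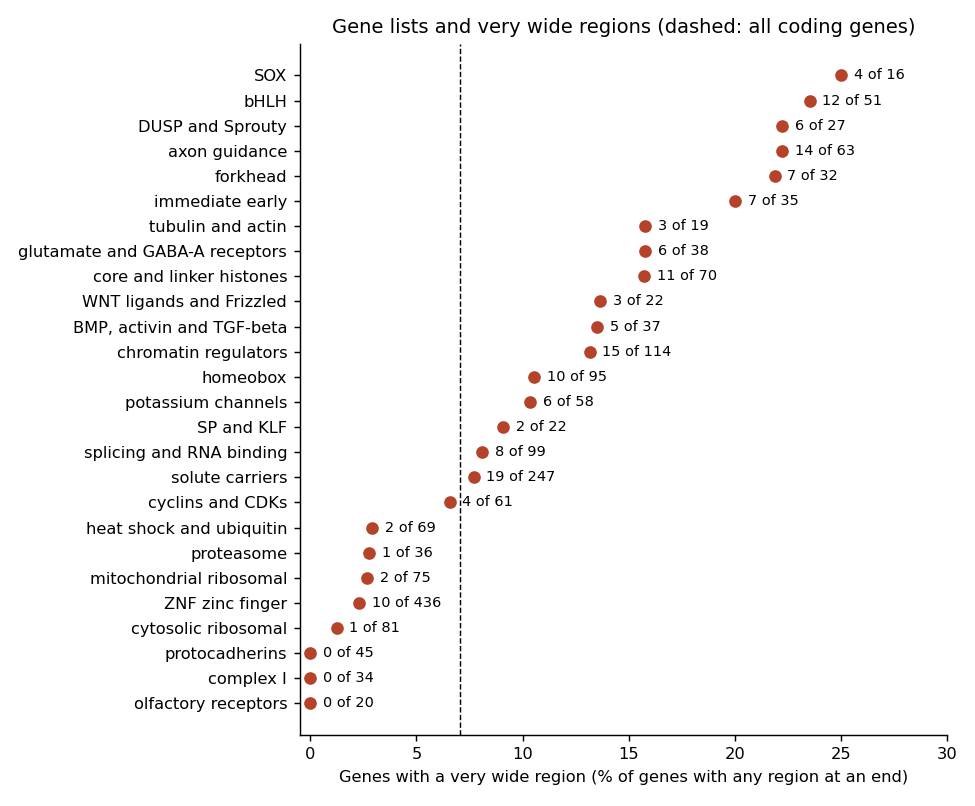
Percentage of the genes with any region at an end that had a very wide one, for each gene list with at least 10 such genes; labels give the counts and the dashed line the 7.03% of all coding genes. SOX, bHLH, phosphatase and Sprouty, axon guidance, forkhead and immediate early genes lie at 20% or above, and ribosomal, ZNF, proteasome, heat shock and complex I genes at 2.90% or below.

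Markers of neurons had regions of very different widths. Of 12 pan-neuronal marker genes with a region at an end, 3 had a very wide one: SNAP25 (2384 bp, 731 tags) and SYT1 (2032 bp, 1185 tags), both of vesicle release, and the neurofilament gene NEFM (2016 bp, 1078 tags). The other 9, named after their values were seen, ran from DCX with 1996 bp, ELAVL3 with 1971 bp, NEFL with 1941 bp and MAP2 with 1901 bp to narrow regions. TUBB3 had 1376 bp, MAPT, the tau gene, 1244 bp, STMN2 993 bp, GAP43 992 bp and SYN1 819 bp. The median of the widest region over the 12 genes was 1921 bp.

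Markers of particular neuron types and of other cells were counted in the same way. Of 9 glutamatergic markers CUX2 and GRIN2B were very wide, of 11 GABAergic markers NPY (2192 bp, 166 tags), of 3 peripheral sensory markers POU4F2, and of 9 neural progenitor markers VIM (2842 bp, 1145 tags). The pluripotency list had 0 of 2, the glial list 0 of 6 and the non-neural list 0 of 1. Here too some genes lay just under the limit, such as SOX2 of the progenitor list (1993 bp) and MBP of the glial list (1966 bp), named after their values were seen. The median of the widest region was 1131 bp for the progenitor list and 1022 bp for the glial list. Whether cells other than neurons contributed to regions such as those of VIM, SOX3 and SOX9 was not tested.

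Promoter sequence differed between the classes in composition. RefSeq promoters, of 250 bases before to 50 after the start, were matched for 761 of the 968 genes at very wide regions and 10503 genes at narrower regions only. By region, promoter GC had a median of 69.7% for 668 members and 65.3% for 10068 narrower regions, higher for members on 20 of 21 autosomes with data and lower on none. CG dinucleotides numbered 30 and 26 per promoter, while the ratio of observed to expected CG was 0.84 in both. Promoters at very wide regions thus held more G and C, with the same ratio of observed to expected CG. GC was higher in members in each of the 5 tag classes, by medians of 71.3% against 64.7% in the lowest and 69.3% against 65.7% in the highest.

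Motifs were counted as exact letters on either strand of these 300 bases. CCGGAAG, the ETS core seen in RMND1, was found in 59 of 761 promoters at very wide regions (7.75%), in 19.1% at narrower regions only and in 10.3% of all 35084 promoters in the table. The share was lower for very wide regions on 19 of 21 autosomes. It was also lower in each of the 5 tag classes, at 4.55% against 9.10% in the lowest, 6.62% against 24.5% in the middle and 11.7% against 20.5% in the highest. The classes together cover fewer genes than the shares above, and the lowest holds only 66 genes at very wide regions, against 1494 at narrower ones. TGCGCA, within the NRF1 site, was found in 8.28% and 13.8% (all promoters 8.24%), and CCAAT in 28.4% and 37.4% (all promoters 34.6%).

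GGGCGG, the box bound by SP and KLF factors, went the other way, with 74.9% at very wide and 69.4% at narrower regions (all promoters 44.9%). TATAAA was found in 8.28% and 5.96% (all promoters 11.5%). The E-box CANNTG, the pattern that bHLH factors read, was in 56.6% and 60.2% (all promoters 68.7%), and its form CAGATG, which it contains, in 9.99% and 9.10% (all promoters 14.7%). The cyclic AMP response element TGACGTCA was in 2.89% and 3.27% (all promoters 1.85%), TAATTA, a homeobox core, in 1.58% and 2.11% (all promoters 4.84%), and ATTGTT, a SOX core, in 6.83% and 5.18% (all promoters 10.1%). The part of base composition in these shares was not tested.

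An opposite-strand start of a long non-coding RNA lay within 1 kb of the start of 18.9% of the genes at very wide regions and 13.7% of those at narrower regions only. For an opposite-strand coding start the shares were 14.7% and 18.7%. The non-coding share was higher for very wide regions in each of the 5 tag classes, which again cover fewer genes. The coding share was lower in 4 of them and higher in class 4, at 31.2% against 20.9%. No test over genes was made.

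By chromosome, the share of regions at coding gene ends that were very wide ranged among autosomes from 2.04% on chromosome 22 and 2.14% on chromosome 19 to 9.71% on chromosome 18 and 12.3% on chromosome 13. The nearest other region was a median of 15180.5 bp away for members and 11903.5 bp for narrower regions, farther for members on 17 of 22 autosomes. The number of other regions within 50 kb differed less regularly. Its median was 2 for members and 3 for narrower regions, lower for members on 5 autosomes and higher on 3.

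Very wide regions away from coding gene ends were fewer and had fewer tags. They numbered 327, so that 72.2% of all very wide regions were at a coding gene end, against 20.2% of all regions. Their median width of 2152 bp and median of 6 summits were close to those of the members, but the strongest summit held a median of 491 tags against 796, with a fold enrichment of 6.08 against 7.08. The 850 members covered 1.93 Mb, 3.15% of all sequence in the list.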

How the data were processed

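ATAC-seq libraries of 3 biological replicates were represented by 1 peak list, named in the labels as the optimal list of an irreproducible discovery rate analysis, a method that keeps peaks ranked alike between replicates. The build is hg38, per the submitters' processing notes; the aligner and caller are not given in the sources used here. Replicates were not separable in the list, and total depth is not given in it. Each entry holds the authors' fold enrichment as a ratio of tags to local background, a deposited −log10 p, a −log10 q and a score, with a summit. The deposited score was used only to filter entries.

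The 145092 entries were grouped into 65234 distinct intervals, each represented by the entry of highest −log10 p. Tag counts at summits were recovered as the whole numbers for which an upper-tail Poisson probability gave the deposited −log10 p, with 1 added to tags and background in the ratio. The largest misfit was 0.00079 units, against a median of 0.27 for the next whole number. Intervals on tags are exact Poisson 95% intervals and cover counting error only, since amplified reads without molecular identifiers are not independent molecules.

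Gene ends came from RefSeq GRCh38 and starts and strand from RefSeq promoters, which covered 15841 of 20033 coding genes. Far ends are ends known not to be starts. The members and gene lists were chosen with earlier results of these data known. Named genes were the 10 widest members, the 5 with most summits, tags, fold or coding genes, up to 4 widest per list, and the 3 nearest the width limit on each side; others are named as picked afterwards, and some genes under this rule are not reported here. The added lists name genes under the same limit. The calculations were tested on simulated data and used Python 3.11.15, numpy 2.4.6, scipy 1.17.1 and pandas 2.3.3.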

Additional observations from a re-analysis of the deposited data

How the results depend on the processing

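Of the values recomputed under other settings, 160 stayed within 1.5 times of the value reported, 37 moved farther and 3 changed sign. With a limit of 1500 bp there were 3829 very wide regions at 4473 coding genes, and with 2500 bp 128 at 142. The reach into the gene then exceeded that of narrower regions by 445 and 1184 bp, the outward reach at 2500 bp by 281 bp, and summits at 2500 bp by 5. The log2 ratio of fold enrichment was -0.24 at 1500 bp and -0.055 in the lowest tag class. List shares that moved with the limit were, at 1500 and 2500 bp, 18.1% and 0% for ZNF genes and 6.17% and 0% for cytosolic ribosomal genes. The cytosolic ribosomal share was also 0% at gene starts only, a setting that leaves out regions of unknown strand such as that of RPL7. The log2 ratio of gene length was 0.83 at 1500 bp and 0.84 in tag class 4 of 5. The promoter GC difference was 6.67 points in the lowest tag class. With only fold enrichments above the median kept, the difference in summits was 0.

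The tag ratio had no stable sign. Its log2 value was 0.25 at 1500 bp and 0.11 with a 2 kb window, but -0.13 at 2500 bp, -0.15 with a 500 bp window, -0.0069 when only the strongest summit counted, -0.20 with any overlap of the end, -0.13 with score 1000 only, -0.12 with fold enrichments above the median, -0.20 at gene starts only, -0.036 with gaps of 200 bp or less joined and -0.26 with the mean over entries. The share with 2 or more coding genes differed by 0.86 points at 1500 bp, and by -5.64 at 2500 bp, -5.22 with a 2 kb window and -1.18 at gene starts only. The cause was not tested. The alternatives without histone genes and with regions oriented by strand were chosen after seeing the data. So were the further gene lists and the values for single chromosomes, which were not among the recomputed settings. No paired analysis was possible because the list pools the replicates, which also prevents leaving one out.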
